A study of Mus musculus with 10 samples.

Results

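A set of 10 genes of the Notch pathway were followed across the series: the receptors Notch1, Notch2 and Notch3, the ligands Jag1, Jag2, Dll1 and Dll4, the DNA-binding mediator Rbpj, and the target genes Hes1 and Hey1. These 10 genes were taken by name from 51707 genes, of which 17495 had enough counts to be tested, and all 10 members were among those tested. The series held 10 RNA sequencing libraries of epithelial cells sorted from mouse pancreatic ductal adenocarcinoma (PDAC), 5 in each of 2 groups. All tumours had been grown in the pancreas from T6-LOH KPC organoids, which come from a mouse PDAC model, mixed with PSCs (pancreatic stellate cells, fibroblast-like support cells of that organ). In the group called Egfr WT PSC here the stellate cells were the control line PSC4 ROSA, and in the group called Egfr KO PSC they were PSC4 EGFR KO B4, a line that lacks the epidermal growth factor receptor. The knockout was carried by the stellate cells and not by the sequenced epithelial cells, so the Egfr level of these libraries does not check the labels, and it was represented by 1 clone. NSG mice, an immunodeficient host, are named in the title of the series, whereas the strain label of each library reads C57BL/6J. The sources used here do not give the ages of the animals or the number of mice behind the libraries. The p-values therefore reflect only how much these libraries varied, which may be technical. Library numbers within a group follow the order of deposit and pair no libraries across groups.

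Notch signalling passes between touching cells: a Jagged or Delta-like ligand on one cell binds a Notch receptor on its neighbour, and the pull releases the receptor to cleavage by an ADAM protease and then by gamma-secretase. The freed intracellular part enters the nucleus, joins RBPJ with a Mastermind coactivator, and switches on target genes, of which the HES and HEY repressors are the classical ones. In the pancreas the pathway holds back acinar and endocrine differentiation, HES1 marks duct and centroacinar cells, and pathway members are found again in pancreatic cancer. Outside the epithelium, DLL4, NOTCH4 and HEY1 are well known from endothelial cells, and NOTCH3 from the mural cells that wrap vessels.

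The libraries held between 39534055 and 53816086 estimated counts, and log2 CPM (counts scaled to a fixed library total) of any 2 libraries correlated at 0.956 to 0.985. Epithelial markers summed to between 17353 and 18792 CPM in the Egfr WT PSC libraries and between 14767 and 26435 CPM in the Egfr KO PSC libraries. Epcam stood at 225 ± 73.2 and 225 ± 29.8 CPM (SD, n = 5 each) and Krt18 at 4177 ± 298 and 4302 ± 1001 CPM. Egfr KO PSC library 3 had the lowest epithelial sum of all libraries (14767 CPM) and the lowest Krt18 (3014 CPM), with Epcam at 261 CPM. Markers of other cells were present at lower levels: 12 endothelial markers summed to 33.4–54.0 and 15.4–70.8 CPM, 8 mural markers to 94.0–249.9 and 53.2–169 CPM, 10 fibroblast and stellate cell markers to 357–906 and 330–1226 CPM, 11 macrophage markers to 41.4–99.1 and 54.3–87.0 CPM, and 10 acinar and islet markers to 158–395 and 125–467 CPM. No marker was at 0 in every library. By the fit, 8 of the 10 fibroblast and stellate cell markers were lower in the Egfr KO PSC libraries, with a median log2 fold change of -0.61, and 7 of the 8 mural markers were lower, with a median of -0.29. In edgeR 0 of either list passed the adjusted threshold, with 3 and 1 at an unadjusted p under 0.05, a mark that 8.15% of all genes fell under. The genes of most counts in each list outside the epithelium follow, in CPM in the Egfr WT PSC and Egfr KO PSC libraries. Pecam1 stood at 8.23 ± 2.37 and 6.79 ± 4.99, and Rgs5 at 107 ± 55.1 and 77.8 ± 40.1. Col3a1 stood at 412 ± 195 and 477 ± 350, Mrc1 at 27.2 ± 8.21 and 39.4 ± 16.4, and Ctrb1 at 96.5 ± 46.0 and 128 ± 66.3. Col3a1 was highest in Egfr KO PSC library 1 (1071 CPM). The higher mean of Mrc1 went against most of its list. Of 10 tested macrophage markers 7 were lower and 3 higher in the Egfr KO PSC libraries, with a median log2 fold change of -1.19 and 0 past the adjusted threshold. The defining markers Col1a1 and Ptprc stood at 199 ± 55.2 and 2.68 ± 1.45 CPM in the Egfr WT PSC libraries and at 96.6 ± 27.2 and 1.03 ± 0.448 CPM in the Egfr KO PSC libraries. In bulk samples such as these, fewer cells of a type and less RNA per cell cannot be told apart.

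No member passed the test between the groups after adjustment over all genes. With edgeR's quasi-likelihood test and Benjamini-Hochberg adjustment, 0 of the 10 members and 0 of all 17495 genes (0%) passed an adjusted p of 0.05, and the lowest adjusted p among the members was 0.481 (Hey1). At an unadjusted p under 0.05 there were 2 members, Hey1 and Rbpj, where 8.15% of all genes fell under the same mark. DESeq2 called 0 members against 0.726% of all genes, and had 3 members at an unadjusted p under 0.05 against 9.43% of all genes. Limma voom with sample weights called 0 members against 0.0114% of all genes, and had 2 members at an unadjusted p under 0.05 against 12.3%. For 0 members were the groups without overlap in CPM, against 1.52% of all genes. On the log2 scale, as Egfr KO PSC over Egfr WT PSC, 6 members were higher and 4 lower, with a median of 0.17, while over all genes 8762 were higher and 8733 lower with a median of 0.000409.

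**Figure D1:**
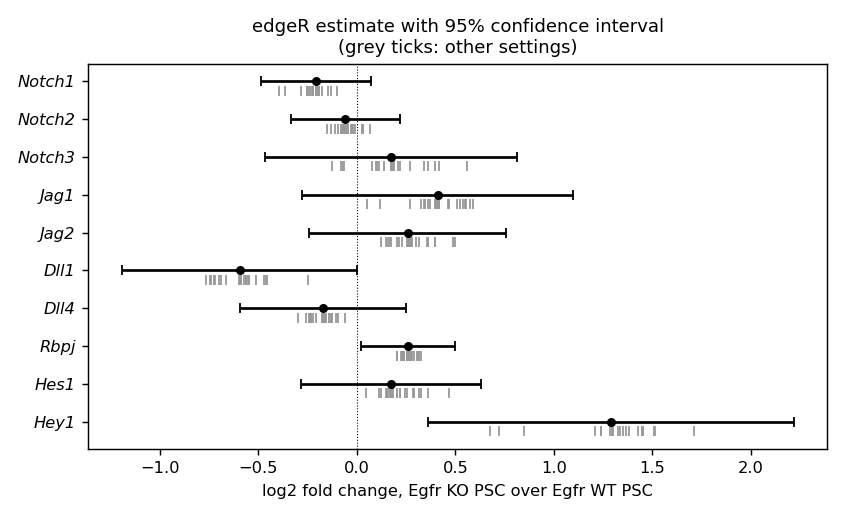
Log2 fold change (Egfr KO PSC over Egfr WT PSC) of each member, ordered by role, as points with 95% confidence intervals, and grey ticks for its value under each alternative fit. The intervals of Hey1 (0.36 to 2.22) and Rbpj (0.020 to 0.50) lie above 0 before adjustment, and those of the other members include 0.

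Levels per transcript length, as deposited in TPM, placed a ligand and the nuclear mediator at the top. The mean TPM over the 10 libraries was 33.1 ± 14.7 (SD) for Jag1 and 32.3 ± 4.33 for Rbpj, and these neighbours did not separate, since Jag1 exceeded Rbpj in 4 of 10 libraries. Hes1 followed at 17.6 ± 3.03 TPM and lay below Rbpj in 10 of 10 libraries. Dll4 had 11.8 ± 2.89, Notch2 8.62 ± 1.19 and Notch1 6.46 ± 1.00 TPM, and each of Hes1, Dll4, Notch2 and Notch1 was above the next in 8 or 9 of 10 libraries. Jag2 (5.48 ± 1.18 TPM) exceeded Dll1 (4.11 ± 1.49 TPM) in only 6 of 10 libraries, so their order was not resolved. Dll1 was above Notch3 (2.08 ± 0.795 TPM) in 8 of 10, and Hey1 was lowest at 0.603 ± 0.490 TPM, under Notch3 in 10 of 10.

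**Figure D2:**
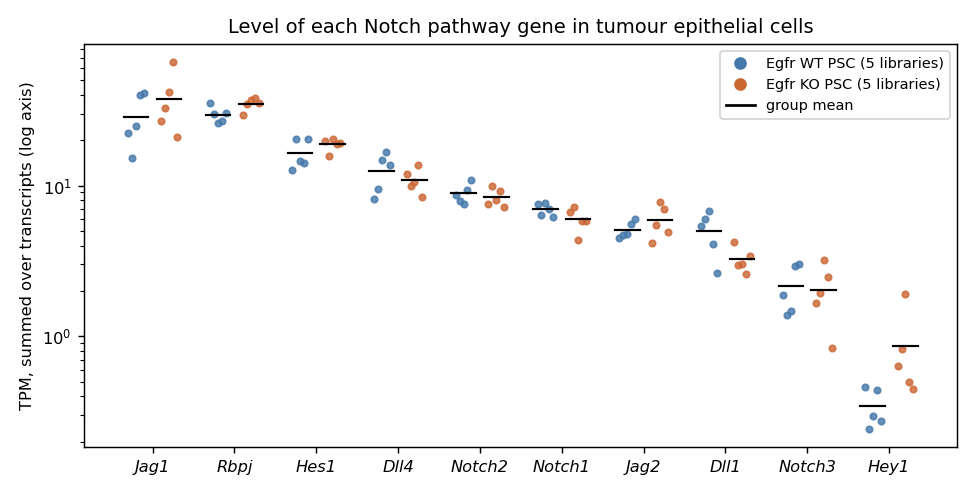
Summed TPM of the 10 members in each library, on a logarithmic axis, ordered by mean level, with the groups in different colours and a bar at each group mean. Jag1 (mean 33.1 TPM) and Rbpj (32.3 TPM) share the top, and Hey1 (0.603 TPM) lies under Notch3 in each library.

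Among the receptors, Notch2 gave the most transcripts per length in 9 of 10 libraries. It made up 48.4 ± 3.85% of the TPM of the 4 receptor genes in the Egfr WT PSC libraries and 49.6 ± 2.46% in the Egfr KO PSC libraries (SD, n = 5 each), Notch1 38.3 ± 5.25% and 35.5 ± 5.46%, Notch3 11.5 ± 3.35% and 12.0 ± 5.53%, and Notch4, which is no member, 1.78 ± 1.69% and 2.81 ± 3.91%. The 4 receptors together summed to 18.3 ± 1.62 and 16.8 ± 1.67 TPM. For each receptor share the group means lay closer together than 1 SD of either group.

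The promoters of the receptors are shown because the receptors take up the signal, and because HES and HEY repressors and RBPJ read short DNA words that can be looked for in them. The stretches come from RefSeq (GRCm38.p6), run from 250 bases upstream towards the gene's start, and end where the first annotated exon of the gene begins. Capitals mark CACGNG, a HES and HEY word, and TGGGAA, the core of the RBPJ word, searched on both strands, so that the reverse reading CNCGTG or TTCCCA also counts. No match of one word overlapped a match of the other in the stretches printed here. Notch1 lies at chr2:26503825-26504072 (minus strand), Notch2 at chr3:98013288-98013526 (plus strand) and Notch3 at chr17:32166891-32167140 (minus strand).
Notch1: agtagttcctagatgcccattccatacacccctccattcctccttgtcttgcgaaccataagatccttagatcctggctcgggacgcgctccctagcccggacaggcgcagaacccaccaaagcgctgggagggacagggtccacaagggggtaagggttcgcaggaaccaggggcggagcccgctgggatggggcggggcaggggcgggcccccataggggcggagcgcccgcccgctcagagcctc
Notch2: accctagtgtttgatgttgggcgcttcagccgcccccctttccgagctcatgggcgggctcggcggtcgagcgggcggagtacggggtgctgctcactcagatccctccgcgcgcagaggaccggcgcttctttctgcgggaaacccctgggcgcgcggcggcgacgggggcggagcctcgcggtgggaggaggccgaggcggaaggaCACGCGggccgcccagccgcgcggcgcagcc
Notch3: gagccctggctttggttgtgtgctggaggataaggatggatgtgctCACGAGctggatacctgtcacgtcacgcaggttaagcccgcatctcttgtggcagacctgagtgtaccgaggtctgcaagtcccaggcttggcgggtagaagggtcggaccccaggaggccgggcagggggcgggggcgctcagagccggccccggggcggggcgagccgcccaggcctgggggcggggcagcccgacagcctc
The Notch1 stretch held neither word, and those of Notch2 and Notch3 held 1 CACGNG match each. Of the 10 members, 8 had a promoter in the RefSeq table. The target genes Hes1 and Hey1 had none there, so neither word was looked for in their promoters. CACGNG was found within 250 bases upstream of the start in 5 of the 8 (Notch2, Notch3, Jag1, Dll1 and Dll4). Of 32851 upstream windows of that length, 23.5% held it. TGGGAA was found in 1 of the 8, Rbpj, and in 21.6% of the windows. Members were counted by gene over all their starts, of which 2 members had 2, and the background by window. The 2 counts are therefore not on one scale, and enrichment was not tested. A match describes letters only and is not evidence of a bound site.

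Notch1 mRNA had among the steadiest levels of the members. Its CPM was 46.4, 43.2, 45.1, 41.0 and 39.5 in Egfr WT PSC libraries 1 to 5 and 42.6, 41.0, 26.7, 37.2 and 39.2 in Egfr KO PSC libraries 1 to 5. The knockout libraries all lay below the Egfr WT PSC median, 3 of them below every Egfr WT PSC library, and library 3 stood lowest, while the groups overlapped. The means were 43.1 ± 2.85 and 37.3 ± 6.29 CPM (SD, n = 5 each), and the log2 fold change was -0.21 (SE 0.13, 95% confidence interval -0.49 to 0.07, edgeR adjusted p = 0.7103). Over the alternatives it lay between -0.40 with the endothelial marker score as a covariate (edgeR adjusted p = 0.141) and -0.10 without Egfr KO PSC library 3 (adjusted p = 0.731), and it was -0.36 with the mural score (adjusted p = 0.140). The antisense genes 0610009E02Rik and Gm13568 overlap Notch1 in the annotation, at means of 1.13 and 1.08 CPM, and the sources used here do not give the strand setting of the quantification.

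Notch2, the more abundant receptor, had nearly equal group means of 64.1 ± 10.3 and 61.5 ± 6.98 CPM, with Egfr WT PSC libraries between 51.0 and 79.7 CPM and Egfr KO PSC libraries between 56.4 and 70.7 CPM. The groups overlapped throughout (log2 fold change -0.06, SE 0.13, interval -0.34 to 0.22, edgeR adjusted p = 0.924), and the sign turned without Egfr WT PSC library 5 (0.03). Its log2 CPM had an SD of 0.19 over the 10 libraries, larger than that of only 17.4% of genes.

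Notch3, the receptor best known from mural cells, ranged from 6.38 to 12.7 CPM in the Egfr WT PSC libraries and from 4.604 to 16.1 CPM in the Egfr KO PSC libraries. Its highest values were in Egfr KO PSC library 3 (16.1 CPM) and Egfr WT PSC library 5 (12.7 CPM), the 2 libraries that also led the summed mural markers at 169 and 249.9 CPM and the mural gene Rgs5 at 135 and 202 CPM. Not every library followed that order. Egfr KO PSC library 5 had the lowest Notch3 of all (4.604 CPM) at a mural sum of 121 CPM. Egfr KO PSC library 1 had the lowest mural sum (53.2 CPM) at 8.83 CPM of Notch3. With the mural marker score as a covariate its log2 fold change was 0.40 (edgeR adjusted p = 0.536), and the part of mural cells in its level was otherwise not tested. The groups overlapped, at 8.74 ± 2.49 and 9.86 ± 4.11 CPM (log2 fold change 0.17, SE 0.29, interval -0.46 to 0.81, edgeR adjusted p = 0.901), and without Egfr KO PSC library 3 the value was -0.07, while it was 0.56 with the fibroblast and stellate cell score. On the TPM scale the order of the means was the other way, 2.14 ± 0.794 against 2.03 ± 0.885. Notch3-203, a retained-intron transcript of 645 bases, was assigned 0.483 ± 0.473 TPM in the Egfr WT PSC libraries (above 0 in 3 of 5) and 0.128 ± 0.285 TPM in the Egfr KO PSC libraries (above 0 in 1 of 5). The protein-coding Notch3-201 alone stood at 1.66 ± 0.460 and 1.898 ± 0.847 TPM, in the order of the counts.

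**Figure D3:**
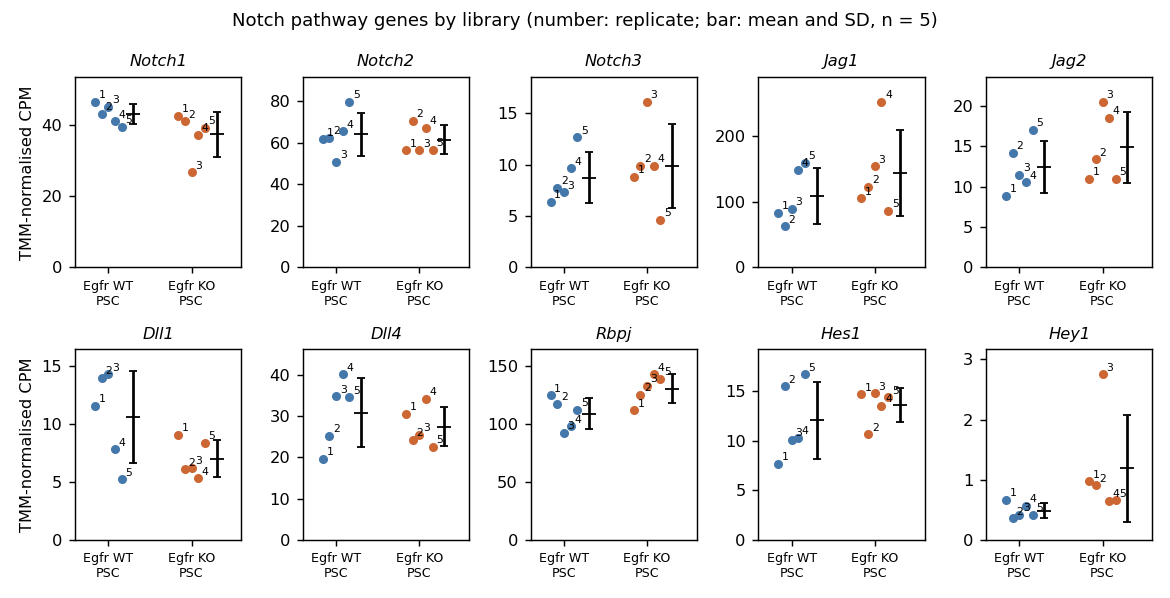
CPM of each member in each of the 10 libraries, 1 panel a gene with its own axis from 0, replicate numbers beside the points, and bars for the group mean and SD. The groups overlap for every member, and Egfr KO PSC library 3 stands apart in Hey1 (2.75 CPM).

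Jag1 was the leading ligand in 10 of 10 libraries. It made up 54.4 ± 8.80% of the TPM of the 5 ligand genes in the Egfr WT PSC libraries and 63.2 ± 7.37% in the Egfr KO PSC libraries, with single libraries between 42.9% and 73.7%. Dll4 followed at 24.5 ± 3.61% and 19.9 ± 4.06%, Jag2 at 10.3 ± 1.91% and 10.5 ± 2.21%, and Dll1 at 10.8 ± 5.41% and 6.30 ± 2.69%. Dll3, an intracellular inhibitor rather than an activating ligand, gave a mean of 0.027% and 0.040%. The ligands together summed to 51.3 ± 13.6 and 57.7 ± 19.8 TPM.

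The level of Jag1 varied more than that of most genes and overlapped between the groups. Its CPM was 82.9, 62.4, 89.3, 149 and 159.6 in Egfr WT PSC libraries 1 to 5 and 105, 123, 154, 252.4 and 86.8 in Egfr KO PSC libraries 1 to 5. Library 4 of the Egfr KO PSC group was highest and library 2 of the Egfr WT PSC group lowest, 4.05-fold apart, and Egfr WT PSC libraries 4 and 5 lay among the higher Egfr KO PSC libraries. The means were 109 ± 43.0 and 144 ± 65.3 CPM, with a log2 fold change of 0.41 (SE 0.32, interval -0.28 to 1.10, edgeR adjusted p = 0.762). Over the alternatives it lay between 0.05 with the macrophage marker score as a covariate and 0.59 without Egfr WT PSC library 5. It was 0.12 without Egfr KO PSC library 4, 0.27 without Egfr WT PSC library 2 and 0.54 with the mural score.

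Dll1 was lower in the Egfr KO PSC libraries by its means, and its interval just reached 0. Its CPM was 11.6, 14.0, 14.3, 7.81 and 5.22 in Egfr WT PSC libraries 1 to 5 and 9.08, 6.08, 6.22, 5.33 and 8.39 in Egfr KO PSC libraries 1 to 5. The Egfr KO PSC libraries all lay below the Egfr WT PSC median, but Egfr WT PSC library 5 was the lowest of all 10. The means were 10.6 ± 3.98 and 7.02 ± 1.62 CPM, and the log2 fold change was -0.59 (SE 0.27, interval -1.19 to 0.0036, edgeR adjusted p = 0.618), and over the alternatives it lay between -0.77 without Egfr WT PSC library 5 and -0.25 with the macrophage marker score as a covariate. In that macrophage list 7 of 10 tested genes were lower and 3 higher in the Egfr KO PSC libraries, with a median log2 fold change of -1.19, and 0 passed the adjusted threshold in edgeR, 6 of them having an unadjusted p under 0.05. The share of all genes under that unadjusted mark was 8.15%.

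Jag1 and Dll1 tended to run against each other from library to library, though short of the adjusted threshold. Their promoters are shown as the pair of members with the largest absolute Pearson r, a choice made after the values were seen. As above, capitals mark CACGNG read on either strand. Jag1 lies at chr2:137116645-137116770 (GRCm38.p6, minus strand) and Dll1 at chr17:15376933-15377182 (minus strand), upstream of the farther of its starts.
Jag1: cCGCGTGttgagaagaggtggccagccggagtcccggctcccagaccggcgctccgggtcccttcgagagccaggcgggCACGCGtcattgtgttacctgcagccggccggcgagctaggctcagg
Dll1: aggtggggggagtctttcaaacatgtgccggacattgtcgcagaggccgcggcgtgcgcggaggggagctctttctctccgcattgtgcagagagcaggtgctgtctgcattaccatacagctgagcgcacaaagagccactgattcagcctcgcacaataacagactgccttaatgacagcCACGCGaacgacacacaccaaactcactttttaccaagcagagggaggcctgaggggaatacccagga
The Jag1 stretch held 2 CACGNG matches and the Dll1 stretch 1, where 5.40% of all windows held 2 or more. Both stretches held 0 TGGGAA matches.

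Over the 10 libraries, log2 CPM of Jag1 and Dll1 had a Pearson r of -0.859 (permutation p = 0.00119, adjusted over the 45 member pairs 0.0535) and a Spearman rho of -0.855 (permutation p = 0.00277, adjusted 0.0623). It thus missed the adjusted threshold. Without the 2 libraries farthest from the median of Jag1, Egfr WT PSC library 2 and Egfr KO PSC library 4, r was -0.814, and for deviations from the group means it was -0.843. Within the Egfr WT PSC libraries it was -0.905 and within the Egfr KO PSC libraries -0.850 (5 libraries each). On log2 TPM r was -0.747, and leaving out each library in turn gave -0.886 to -0.810. Both genes share the libraries, so depth and cell makeup of each library enter both values.

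**Figure D4:**
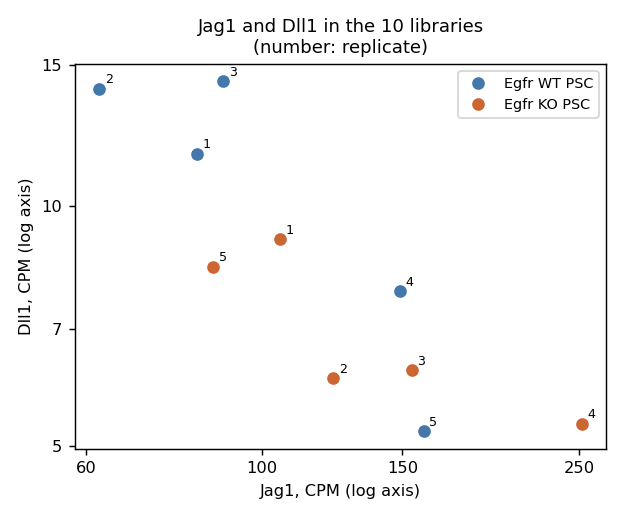
CPM of Dll1 against CPM of Jag1 on logarithmic axes, 1 point a library, with the groups in different colours. Libraries with more Jag1 tended to have less Dll1 in both groups (r of log2 CPM -0.859 over 10 libraries, permutation p adjusted over the 45 member pairs 0.0535, and -0.905 and -0.850 within the groups).

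Of all 45 member pairs, 27 had a positive r and 18 a negative one, with a median of 0.164, 7 pairs at a permutation p under 0.05 and 0 after adjustment. By absolute r the next largest were Notch1 with Hey1 and Notch1 with Jag2. Notch3 with Jag1 is outside the naming rule and was named after its values were seen. Its rho was 0.855 (permutation p = 0.00272, adjusted 0.0623), as far from 0 as that of Jag1 with Dll1. The r of Notch3 with Jag1 was 0.644 (permutation p = 0.0444, adjusted 0.237). For Notch1 and Hey1, r was -0.788 (permutation p = 0.0367, adjusted 0.237) but rho was -0.297 (permutation p = 0.408, adjusted 0.680). Without the 2 libraries farthest in Notch1 r was -0.249, and without Egfr KO PSC library 3 alone -0.127, so this relation rests on that library. For Notch1 and Jag2, r was -0.755 (permutation p = 0.00250, adjusted 0.0562) and rho -0.636 (permutation p = 0.0547, adjusted 0.224). It was -0.552 without the 2 libraries farthest in Notch1, and -0.717 and -0.799 within the Egfr WT PSC and Egfr KO PSC libraries.

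For Jag2 and Dll4, the other ligands, the group means lay closer together than 1 SD of either group. Jag2 ranged from 8.86 to 17.1 CPM in the Egfr WT PSC libraries and from 11.0 to 20.5 CPM in the Egfr KO PSC libraries, with means of 12.4 ± 3.23 and 14.9 ± 4.42 (log2 fold change 0.26, SE 0.23, interval -0.24 to 0.76, edgeR adjusted p = 0.798). Its highest value was again in Egfr KO PSC library 3, and its fold change lay between 0.12 without that library and 0.50 with the endothelial score. Dll4, the ligand known from sprouting endothelium, ranged from 19.7 to 40.2 and from 22.6 to 34.2 CPM, with means of 30.9 ± 8.28 and 27.5 ± 4.79 (log2 fold change -0.17, SE 0.19, interval -0.59 to 0.25, edgeR adjusted p = 0.849). Egfr KO PSC library 3, highest in endothelial markers, stood at 25.5 CPM of Dll4, inside the range of both groups, and the fold change of Dll4 lay between -0.30 without Egfr WT PSC library 1 and -0.058 without Egfr WT PSC library 4.

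Rbpj, the DNA-binding protein through which all 4 receptors signal, was one of the 2 members under an unadjusted p of 0.05. Its CPM was 124, 117, 92.0, 97.8 and 112 in Egfr WT PSC libraries 1 to 5 and 112, 125, 133, 143 and 139 in Egfr KO PSC libraries 1 to 5. In 4 of 5 Egfr KO PSC libraries it lay above every Egfr WT PSC library, and Egfr KO PSC library 1 lay among them. The means were 109 ± 13.5 and 130.1 ± 12.3 CPM, and 29.6 ± 3.55 and 34.9 ± 3.43 TPM. The log2 fold change was 0.26 (SE 0.11, interval 0.020 to 0.50, edgeR adjusted p = 0.586), so that the difference did not pass over all genes. Rbpj kept this sign in 24 of 24 alternative fits, between 0.20 and 0.33. This did not set Rbpj apart, since 8 of the 10 members never changed sign over their alternatives, which draw on the same libraries.

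The Rbpj promoter is shown as the only one with TGGGAA, the word that RBPJ itself reads, among the 8 member promoters searched. Those of Hes1 and Hey1 were not among the 8. Beside it stands the promoter of Hes5, a classical target, in which the word stands once on each strand. Rbpj lies at chr5:53590096-53590213 and Hes5 at chr4:154960673-154960922 (both GRCm38.p6, plus strand), and capitals mark TGGGAA or its reverse reading TTCCCA. Both were chosen after the values were seen.
Rbpj: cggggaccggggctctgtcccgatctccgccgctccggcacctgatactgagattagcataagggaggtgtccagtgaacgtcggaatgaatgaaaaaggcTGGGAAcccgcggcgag
Hes5: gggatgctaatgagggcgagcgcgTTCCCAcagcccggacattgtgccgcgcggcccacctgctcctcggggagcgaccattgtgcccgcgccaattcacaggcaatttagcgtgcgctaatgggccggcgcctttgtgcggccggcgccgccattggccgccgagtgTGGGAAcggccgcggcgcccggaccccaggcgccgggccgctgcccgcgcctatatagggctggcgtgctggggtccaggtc
The printed Rbpj stretch held 1 match, its whole window of 250 bases held 2, the Hes5 stretch held 2, and 2.77% of all windows held 2 or more. Hes5 itself had 0 to 1 counts in a library and was below the filter.

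Rbpj was also the member whose transcripts were most mixed. Rbpj-203 held 41.8% of the gene's TPM, Rbpj-208 27.3%, Rbpj-201 18.0%, Rbpj-207 6.55% and Rbpj-202 3.54%, out of 12 listed transcripts, and these 5 are annotated as protein-coding. Rbpj-203 led in 9 of 10 libraries and Rbpj-208 in 1. The share of Rbpj-203 was 39.4 ± 8.30% in the Egfr WT PSC libraries and 44.1 ± 3.84% in the Egfr KO PSC libraries (exact two-sided permutation p = 0.302, adjusted over 9 members 0.905). Such shares depend on how the quantification divided reads that transcripts have in common. The processed copy Rbpj-ps3 took a mean of 0.631 CPM, against at least 92.0 CPM for Rbpj in each library.

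In the other 8 members with at least 1 TPM, a single transcript led in both groups. Jag1-201, Notch2-201 and Dll4-201 each held more than 99% of their gene's TPM on average, Notch1-201 97.8% and 96.7%, Dll1-201 88.0% and 88.9%, Hes1-201 85.9 ± 8.16% and 84.6 ± 1.57%, Jag2-201 78.2 ± 15.4% and 80.9 ± 8.77%, and Notch3-201 81.2 ± 18.1% and 94.9 ± 11.5%, in the Egfr WT PSC and Egfr KO PSC libraries. The share of the leading transcript passed the test in 0 of the 9 members, with a lowest adjusted p of 0.905 and a lowest unadjusted p of 0.167 by two-sided exact permutation tests that cannot give a p below 0.00794.

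Hes1, the target gene that marks duct cells, was present in each library at levels that overlapped between the groups. Its CPM was 7.67, 15.5, 10.1, 10.3 and 16.7 in Egfr WT PSC libraries 1 to 5 and 14.7, 10.6, 14.8, 13.5 and 14.4 in Egfr KO PSC libraries 1 to 5. The Egfr KO PSC libraries all lay above the Egfr WT PSC median and inside the Egfr WT PSC range. The means were 12.0 ± 3.85 and 13.6 ± 1.73 CPM (log2 fold change 0.17, SE 0.21, interval -0.29 to 0.63, edgeR adjusted p = 0.857), and over the alternatives the value lay between 0.05 without Egfr WT PSC library 1 and 0.47 with the fibroblast and stellate cell score. It was 0.36 with the mural score, 0.33 with the endothelial score and 0.32 without Egfr WT PSC library 5.

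Hey1, the other target gene, had the largest fold change of the members and the fewest counts, 18 to 119 in a library. Its CPM was 0.666, 0.359, 0.416, 0.568 and 0.416 in Egfr WT PSC libraries 1 to 5 and 0.975, 0.907, 2.75, 0.643 and 0.654 in Egfr KO PSC libraries 1 to 5. Egfr KO PSC library 3 was by far the highest, and the groups met only where Egfr WT PSC library 1 lay just above Egfr KO PSC libraries 4 and 5. The means were 0.485 ± 0.128 and 1.19 ± 0.888 CPM, and the log2 fold change was 1.29 (SE 0.43, interval 0.36 to 2.22, edgeR adjusted p = 0.481). Without Egfr KO PSC library 3 it was 0.72 (edgeR adjusted p = 0.409), and with the fibroblast and stellate cell score 1.71. Its groups did not overlap with upper quartile factors, where the same held for 1.63% of all genes, with effective lengths as an offset (1.57%), or without Egfr WT PSC library 1 (2.41%).

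Hey1 is also an endothelial gene, so the endothelial markers are set beside it. Egfr KO PSC library 3, with 2.75 CPM of Hey1, had the highest endothelial sum (70.8 CPM), with Pecam1 at 14.9 and Cdh5 at 12.6 CPM. The other 4 Egfr KO PSC libraries had endothelial sums of 15.4 to 32.6 CPM, each below the lowest Egfr WT PSC library (33.4 CPM), and Hey1 at 0.643 to 0.975 CPM. Of the 12 endothelial markers 11 were tested. All 11 had a lower mean in the fit for the Egfr KO PSC group, with a median log2 fold change of -0.28. In edgeR 0 of them passed the adjusted threshold and 0 had an unadjusted p under 0.05, a mark that 8.15% of all genes fell under. Over all genes 8762 were higher and 8733 lower. With the endothelial marker score as a covariate the log2 fold change of Hey1 was 1.51 (edgeR adjusted p = 0.141). With the mural score it was 1.45 (edgeR adjusted p = 0.122). The part of endothelial cells in the level of Hey1 was otherwise not tested.

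**Figure D5:**
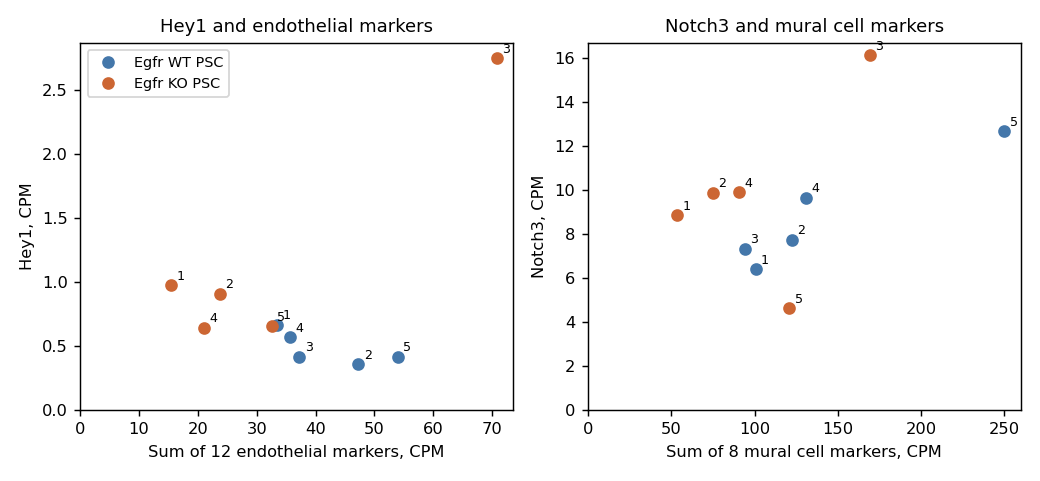
Left, CPM of Hey1 against the summed CPM of 12 endothelial markers, and right, CPM of Notch3 against the summed CPM of 8 mural cell markers, 1 point a library, with groups in different colours and replicate numbers beside the points. Egfr KO PSC library 3 is highest in Hey1 (2.75 CPM) and in the endothelial sum (70.8 CPM), and Egfr KO PSC library 3 and Egfr WT PSC library 5 are highest in Notch3 (16.1 and 12.7 CPM) and in the mural sum (169 and 249.9 CPM). Egfr KO PSC library 5 is lowest in Notch3 (4.604 CPM) at a mural sum of 121 CPM.

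The spread between libraries differed widely among the members. The SD of log2 CPM over the 10 libraries was 0.19 for Notch2, 0.21 for Rbpj and 0.22 for Notch1, where the median of all tested genes was 0.344. It was 0.33 for Dll4, 0.36 for Hes1, 0.40 for Jag2, 0.50 for Notch3, 0.54 for Dll1, 0.59 for Jag1 and 0.81 for Hey1. The spread of Hey1 was larger than that of 90.3% of genes, that of Jag1 than 79.1%, and that of Rbpj than 21.9%. By this measure Notch2, Rbpj and Notch1 were the steadiest members, and Hey1, Jag1, Dll1 and Notch3 the most variable. The comparison takes all tested genes whatever their level, and Hey1 had only 18 to 119 counts in a library. The part of counting noise in these spreads was not tested.

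The genes whose log2 CPM ran most like that of the leading receptor, ligand and target were looked up among 10464 genes over the 10 libraries, as a description. For Notch2 they were Gja1, a gap junction protein (r = 0.92), Zmiz1 (0.91) and Sugt1 (0.90). For Jag1 they were Ube2r2 (0.97), Scin, an actin-severing protein (0.96), and Cnnm4, a magnesium transporter (0.95), with 136 genes over 0.8. For Hes1 they were Zxdc (0.98), Tmem189 (0.93) and the ribosomal protein gene Rps28 (0.93), with 144 genes over 0.8, against 28 for Notch2. With so many genes searched over 10 libraries that share depth and cell makeup, values of this size carry no test.

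Another 54 genes of the pathway were followed by role, of which 50 were tested: 18 were higher and 32 lower in the Egfr KO PSC libraries, 0 passed the adjusted threshold in edgeR, and 3 had an unadjusted p under 0.05, with a median log2 fold change of -0.06. Over all genes 8762 were higher and 8733 lower, and 8.15% had an unadjusted p under 0.05. Notch4, the endothelial receptor, stood at 0.571 ± 0.140 and 0.648 ± 0.382 CPM (log2 fold change 0.17, adjusted p = 0.925; -0.24 without Egfr KO PSC library 5), and Dll3 had 0 to 2 counts. Of 6 further HES and HEY family and feedback genes, 3 were tested and 3 were lower: Hes6 at 26.1 ± 8.40 and 19.3 ± 5.12 CPM (-0.43, adjusted p = 0.685), Heyl at 1.53 ± 0.304 and 1.21 ± 0.502 CPM (-0.34, adjusted p = 0.801) and Nrarp, a feedback inhibitor, at 0.732 ± 0.263 and 0.700 ± 0.309 CPM (-0.06, adjusted p = 0.976). Hes5, Hes7 and Hey2 were below the filter. So of the HES and HEY genes, the members Hes1 and Hey1 had higher means and Hes6 and Heyl lower means, with no call among them.

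Genes that modify or cut the receptors showed no call either. Of 6 genes of receptor glycosylation and furin cleavage, 2 were higher and 4 lower, with a median of -0.13. Furin, which cuts the receptor on its way to the surface, stood at 136 ± 36.6 and 169.7 ± 41.6 CPM (0.32, edgeR adjusted p = 0.714), and Poglut1, which glucosylates the receptor, at 45.8 ± 4.90 and 38.0 ± 6.96 CPM (-0.27, adjusted p = 0.646). Of 9 ADAM and gamma-secretase genes, 3 were higher and 6 lower, with a median of -0.01. Adam10, the main protease of ligand-driven cleavage, stood at 252.05 ± 61.7 and 211 ± 39.2 CPM (-0.25, adjusted p = 0.742), and the gamma-secretase subunit gene Psenen at 114 ± 14.5 and 116 ± 7.20 CPM (0.02, adjusted p = 0.976).

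In the list of ubiquitin ligases and endocytic factors, which act on ligands and receptors, more genes were lower than higher. Of its 13 genes 3 were higher and 10 lower, with a median of -0.22, while over all genes 8762 were higher and 8733 lower. The list held all 3 other pathway genes under an unadjusted p of 0.05, a mark that 8.15% of all genes fell under, with 0 past the adjusted threshold. These were Mib2, a ligase of the ligands, at 14.4 ± 3.97 and 8.73 ± 2.49 CPM (-0.72, edgeR adjusted p = 0.495), Dtx3 at 40.2 ± 7.97 and 30.7 ± 3.45 CPM (-0.39, adjusted p = 0.536) and Dtx3l, outside the naming rule and named after its value was seen (adjusted p = 0.523). Of 7 RBPJ coactivators 3 were higher and 4 lower, with a median of -0.02. Among them were Snw1 at 193 ± 9.56 and 190.1 ± 16.7 CPM (-0.02, adjusted p = 0.966) and the acetyltransferase gene Kat2a at 27.1 ± 3.81 and 22.8 ± 6.46 CPM (-0.25, adjusted p = 0.770). Of 11 RBPJ corepressors 6 were higher and 5 lower, with a median of 0.01. Among these, Hdac1 stood at 207 ± 9.07 and 215 ± 26.7 CPM (0.06, adjusted p = 0.907) and the Groucho-family gene Tle2 at 10.5 ± 1.58 and 7.38 ± 2.60 CPM (-0.50, adjusted p = 0.642).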

How the data were processed

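Epithelial cells were sorted from tumours and sequenced as 10 libraries, 5 in each group. Per the labels' protocols, libraries were made from RNA in TRIzol with a low-input kit whose PCR cycles depended on the input, without molecular identifiers. The authors deposited an estimated count (expected count), a TPM and an effective length for each of 147828 transcripts, from Salmon 1.9.0 with GRCm39 per the submitters' processing notes; the sources used here do not name the annotation release. The 137063 transcripts found in GENCODE M21 (names only) held 98.1% to 98.7% of the counts of a library; estimated counts and TPM were summed per gene and the counts rounded. No pair of libraries agreed within sampling noise (lowest chi-square per degree of freedom 39.2).

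Counts were tested with edgeR 4.0.16 (R 4.3.3; quasi-likelihood, TMM, minimum count 10, no covariate), and p-values were adjusted by Benjamini-Hochberg over 17495 genes. CPM values are TMM-normalised; log2 CPM used a prior count of 2. SEs come from the F statistic and intervals are 95%. DESeq2 1.42.0, limma 3.58.1 on log2(TPM + 0.1) and log2(TPM + 1), limma voom with sample weights, other filters and scalings, marker scores as covariates and leaving out each library were alternatives. Correlations used 100000 permutations. The members, the other pathway genes and the marker lists were chosen with earlier results of these data known. The text names all members, all other receptors, ligands and HES and HEY genes, the most abundant (TPM) and lowest-p gene of each other list, the 3 likest genes, and the 3 largest correlations where none passes.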

Additional observations from a re-analysis of the deposited data

Results flagged for a closer look

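In 66 groups of 5 values examined, 8 held a library that lay far from the other 4, measured as its gap to the nearest one over the whole range of the group. For values that vary freely chance flags about 1 in 20 such groups. Hey1 was at 2.75 CPM in Egfr KO PSC library 3, where the next library had 0.975 CPM. Notch4 was at 0.321 CPM in Egfr WT PSC library 1 (next 0.616) and at 1.31 CPM in Egfr KO PSC library 5 (next 0.648). The other flags concern the share of the leading transcript: Notch1-201 held 90.7% of Notch1 TPM in Egfr KO PSC library 2 (next 97.3%), Notch2-201 99.77% in Egfr KO PSC library 4, Notch3-201 74.4% in Egfr KO PSC library 4, and Dll4-201 98.9% in Egfr WT PSC library 2 and 99.1% in Egfr KO PSC library 4, where in each case but Notch1-201 the other libraries of the group held 100.0%. In those 4 cases the other libraries were tied at the upper limit, so that any share below it is flagged whatever its size, and the chance rate does not apply. They do not show that a library stands apart: the minor transcripts Notch2-202, Notch3-203 and Dll4-202 had means of 0.929, 4.29 and 0.425 estimated counts a library.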

How the results depend on the processing

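In all 24 alternative fits 0 members and 0 other pathway genes passed the adjusted threshold, with a lowest adjusted p of 0.122 among the members, and 0 leading transcript shares passed in 11. Over all genes the count was 0, but 1 without a filter, 1 and 2 on log2 TPM with pseudocounts of 0.1 and 1, 127 with DESeq2, 2 with limma voom, 84 with the mural score as a covariate, and 0 to 4 when each library was left out (4 without Egfr KO PSC library 1, 2 without Egfr WT PSC library 5, 1 without Egfr KO PSC library 3). Among the other pathway genes named here, the lowest adjusted p over the alternatives was 0.0568 (Mib2). With the endothelial score as a covariate 5 members had an unadjusted edgeR p under 0.05, as did 2651 of 17495 genes. With the mural score these counts were 5 and 2843. The groups of 1 member, Hey1, did not overlap with upper quartile factors (1) or with effective lengths as an offset (1), and leaving out each library gave 0 to 1 (1 without Egfr WT PSC library 1), with shares over all genes of 1.63%, 1.57% and 2.41%. Among correlated pairs, leaving out each library gave 0 to 3 past the adjusted threshold; 3 passed without Egfr KO PSC library 5, among them Jag1 with Dll1 (adjusted p = 0.0216; 0.0216 to 0.238 over its alternatives). Of 237 alternative fold changes of members, 229 kept the direction and 8 did not, all in Notch2 and Notch3. Notch2 was 0.024 with limma voom, 0.032 with the fibroblast score, 0.067 without Egfr WT PSC library 5 and Egfr KO PSC library 3 together, and -0.13 to 0.030 over single libraries left out. Notch3 was -0.12 and -0.072 on the TPM scales, -0.079 with effective lengths, and -0.066 to 0.36 over single libraries. Of the other pathway genes, Notch4 was -0.17 with limma voom and -0.24 to 0.30 over single libraries. Nrarp was 0.47 with the fibroblast score, 0.073 without those libraries, and -0.34 to 0.12. Psenen was -0.020 on both TPM scales, -0.0067 with effective lengths, and -0.027 to 0.085. Snw1 was 0.035 without those libraries, 0.0016 with the fibroblast score, and -0.062 to 0.015, and Kat2a was 0.045 with the macrophage score. The causes were not tested. Hey1 gave no value with a minimum count of 30 or on the TPM scales, where it was filtered out. The alternatives for the other pathway genes and the Notch3-201 values were added after seeing the data. No paired analysis was possible because the labels give no replicate numbers: the numbers used here follow the order of deposit within each group and pair nothing. Depth limits Hey1 most, at 18 to 119 counts, and the other members had at least 197 counts in each library.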
